A study of Mus musculus with 8 samples.

Results

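The expression of *Nfe2l2*, which encodes the transcription factor NRF2, its inhibitor *Keap1* and 8 antioxidant genes controlled by NRF2 was followed in mouse pancreatic ductal adenocarcinoma cells in which Smad4 could be switched. The 10 genes were picked by name, with their CPM (read counts scaled to the size of the library) in the 8 libraries in view, so their levels, fold changes and calls are given as a description and without p-values. All 10 were found once each among the 53465 genes of the count table, and all 10 passed the filter on low counts that left 14301 genes for testing.

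In unstressed cells KEAP1 binds NRF2 and hands it to a ubiquitin ligase, so that NRF2 is degraded. Oxidants and electrophiles modify cysteines of KEAP1, NRF2 then accumulates in the nucleus, pairs with small MAF proteins and binds antioxidant response elements near genes for glutathione synthesis, thioredoxin recycling, quinone reduction and NADPH supply. Because much of this control acts on the protein, mRNA levels of *Nfe2l2* and *Keap1* are only one part of it.

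Poly(A) RNA was sequenced from the tumour lines B73 and B87, each of which came from 1 primary tumour and was passaged before use. The tumours arose in mice made by injecting targeted embryonic stem cells into embryos, with Ptf1a-driven Cre, a Cre-dependent rtTA3 linked to mKate2, and a doxycycline-dependent, GFP-linked short hairpin RNA against Smad4, and all 4 groups carried these alleles. Cells kept on doxycycline had Smad4 off, and cells taken off it 5 days before plating had Smad4 on. Treatment began 24 h after plating. In both states the cells spent 24 h with 100 pM TGFβ1 or with 2.5 µM SB505124, which blocks the kinase of the type I TGFβ receptor, with 1 library per line in each group (n = 2). A TGFβ1 effect was therefore measured against blocked signalling and not against untreated cells, and the effect of Smad4 and that of doxycycline cannot be told apart. The labels do not give which hairpin each line carried.

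The libraries held 18389235 to 23440550 counts. *Smad4* was at 33.7 to 35.5 CPM in the 4 Smad4-off libraries and at 97.4 to 117 CPM in the 4 Smad4-on libraries, a log2 difference of 1.73 ± 0.092 (SE) under TGFβ1 and 1.62 ± 0.092 under SB505124. Summed epithelial markers ranged from 1170 to 6180 CPM, against 1.33 to 6.44 CPM for leukocyte markers and 0.702 to 26.1 CPM for endothelial markers, and *Ptprc*, *Adgre1*, *Csf1r*, *Lyz2*, *Cd3e*, *Pecam1* and *Tek* did not pass the filter. The epithelial markers were uneven. *Epcam* was at only 0.153 to 2.11 CPM, and *Krt7* at 474 to 649 CPM in B73 and 12.6 to 28.7 CPM in B87. Summed fibroblast markers ranged from 5.84 to 668 CPM, and *Dcn* and *Lum* did not pass the filter. In B73 the sum was at most 40.5 CPM. The 668 CPM came from the B87 library with Smad4 on and TGFβ1, where *Col1a1* alone was at 627 CPM. In bulk RNA, a change in the make-up of the culture and a change within cells cannot be told apart.

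The antioxidant response element core was looked for first, since it is the sequence through which NRF2 acts. RefSeq promoter windows (GRCm38.p6, 250 bases before to 50 after a start site) were at hand for 8 of the 10 genes, in 10 windows, with no entry for *Gclc* and *Hmox1*. The core TGACNNNGC, read on both strands, occurred in the windows of 5 genes, namely *Nfe2l2*, *Gclm*, *Srxn1*, *Txnrd1* and *G6pdx*, with 1 match each. It occurred in 12.4% of all 32851 windows of this length. The 4 matches that lie upstream of the start are shown to let the elements be compared, in the direction of transcription and with the match in capitals.
*Nfe2l2*, chr2:75704879-75704913, minus strand: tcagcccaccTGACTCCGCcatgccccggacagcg
*Gclm*, chr3:122245407-122245447, plus strand: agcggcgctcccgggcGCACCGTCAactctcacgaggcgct
*Txnrd1*, chr10:82859098-82859138, plus strand: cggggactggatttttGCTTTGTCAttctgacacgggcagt
*G6pdx*, chrX:74428913-74428953, minus strand: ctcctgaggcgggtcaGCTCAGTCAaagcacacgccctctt

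In *Nfe2l2* the core ran with the gene, 240 bases before the start, and in the other 3 shown it lay on the opposite strand, at 134 bases for *Gclm*, 92 for *Txnrd1* and 57 for *G6pdx*. The *Txnrd1* match was found at 1 of its 3 start sites. The *Txnrd1* and *G6pdx* stretches lay upstream of a RefSeq start but inside the span that the count table gives for the gene. The *Srxn1* match lay downstream of the start and is not printed, and *Srxn1* was also the one gene with matches to the AP-1 element TGANTCA, of which it had 2, against 7.81% of all windows with any. No match to the NRF2 core overlapped an AP-1 match. A match is a description of the letters, and elements farther from the start were not covered by these windows.

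**Figure D1:**
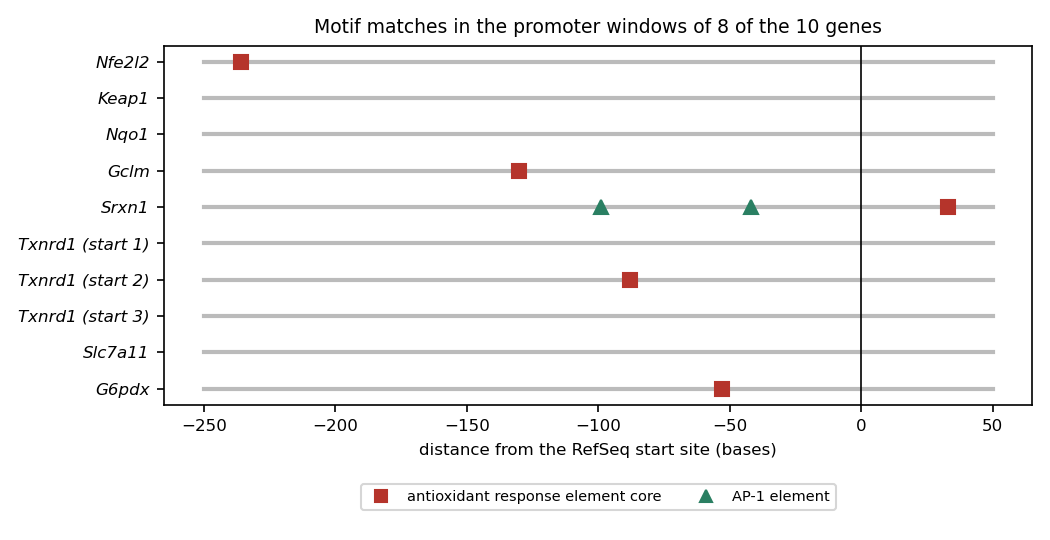
Motif matches in the RefSeq promoter windows of 8 of the 10 genes, with distance from the start site in bases on the x axis and one grey line per window. Red squares mark the antioxidant response element core, present in 5 genes, and green triangles mark the AP-1 element, present only in *Srxn1* among these windows.

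*Nfe2l2* (ENSMUSG00000015839, chr2:75675513-75704641, GRCm38, minus strand), the NRF2 gene itself, was the highest of the 10 genes per length of transcript, with a mean of 82.3 CPM per kb. Under SB505124 it stood at 371 CPM in B73 and 399.8 CPM in B87 with Smad4 off, and at 496 and 447 CPM with Smad4 on. Under TGFβ1 it stood at 249 and 239 CPM with Smad4 off and at 148 and 150 CPM with Smad4 on. Every TGFβ1 library was below every SB505124 library, and the pair with both TGFβ1 and Smad4 was lowest. The log2 change with TGFβ1 was -1.66 ± 0.091 with Smad4 on, a 3.16-fold lower level, and -0.66 ± 0.089 with Smad4 off.

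*Keap1* (ENSMUSG00000003308, chr9:21229730-21239361, minus strand), which holds NRF2 in check, moved the same way over a smaller range. It was at 62.1 and 61.2 CPM in B73 and B87 with Smad4 off under SB505124, and at 66.2 and 63.9 CPM with Smad4 on. With TGFβ1 it was at 47.7 and 44.4 CPM with Smad4 off and at 40.1 and 38.8 CPM with Smad4 on. The lines lay close together in each group. The log2 change with TGFβ1 was -0.72 ± 0.083 with Smad4 on and -0.42 ± 0.082 with Smad4 off, so the mRNA of the inhibitor and of the factor were lower together.

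*Gclc* (ENSMUSG00000032350, chr9:77754535-77794485, plus strand) encodes the catalytic subunit of glutamate-cysteine ligase, the rate-limiting enzyme of glutathione synthesis. It was at 386 CPM in B73 and 245 CPM in B87 with Smad4 off under SB505124, and at 537 and 348 CPM with Smad4 on. Under TGFβ1 it was at 127 and 88.4 CPM with Smad4 off and at 68.6 and 54.2 CPM with Smad4 on. The 4 groups kept the same order in both lines, and B73 was higher than B87 in each group. The log2 change with TGFβ1 was -2.82 ± 0.104 with Smad4 on, 7.08-fold lower, and -1.54 ± 0.099 with Smad4 off, 2.90-fold lower.

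*Gclm* (ENSMUSG00000028124, chr3:122245557-122270732, plus strand) encodes the modifier subunit that raises the activity of the same enzyme. It was at 117 and 97.7 CPM in B73 and B87 with Smad4 off under SB505124, at 145 and 121 CPM with Smad4 on, at 64.4 and 44.1 CPM with Smad4 off and TGFβ1, and at 59.1 and 37.1 CPM with Smad4 on and TGFβ1. Under TGFβ1 its Smad4 difference was -0.18 ± 0.123, against -0.79 ± 0.099 for the catalytic subunit. Its TGFβ1 change was -1.50 ± 0.123 with Smad4 on and -1.004 ± 0.121 with Smad4 off, the latter at the edge of the fold rule used for calls. Of its stretches of 75 bases, 2.84% also occur in other transcripts, chiefly *Ppia*.

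*Slc7a11* (ENSMUSG00000027737, chr3:49892526-50443614, minus strand) encodes xCT, the exchanger that brings in the cystine from which glutathione is made. In B73 it was at 20.1 CPM with Smad4 off and 36.2 CPM with Smad4 on under SB505124, and at 9.08 and 6.94 CPM under TGFβ1. In B87 the same 4 libraries stood at 83.2, 200.7, 21.2 and 14.9 CPM. Both lines had the highest level with Smad4 on and the receptor blocked, and the lowest with Smad4 on and TGFβ1. The log2 change with TGFβ1 was -3.14 ± 0.339 with Smad4 on, 8.84-fold lower and the largest among the 10 genes, and -1.58 ± 0.321 with Smad4 off. Within the lines the Smad4-on change was -2.37 in B73 and -3.74 in B87.

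*Nqo1* (ENSMUSG00000003849, chr8:107388225-107403206, minus strand), a quinone reductase often used as a readout of NRF2, was set apart by the line. In B87 it was at 51.7 CPM with Smad4 off and 87.8 CPM with Smad4 on under SB505124, and at 18.7 and 17.7 CPM under TGFβ1. In B73 the same groups held 2.90, 3.57, 0.643 and 0.153 CPM. All B87 libraries were above all B73 libraries, and both lines had less *Nqo1* with TGFβ1. The log2 change was -2.52 ± 0.338 with Smad4 on and -1.68 ± 0.338 with Smad4 off.

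The B73 values rested on few reads. *Nqo1* had 58 and 66 counts in the SB505124 libraries, 15 with Smad4 off and TGFβ1, and 3 with Smad4 on and TGFβ1. The ratio of SB505124 to TGFβ1 with Smad4 on was 23.3 (exact 95% interval 7.63 to 116, for counting error only), and with Smad4 off it was 4.50 (2.52 to 8.56). The step from Smad4 off to on within TGFβ1 was 15 to 3 counts, a ratio of 4.20 (1.19 to 22.6), whereas B87 held 375 and 348 counts there.

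**Figure D2:**
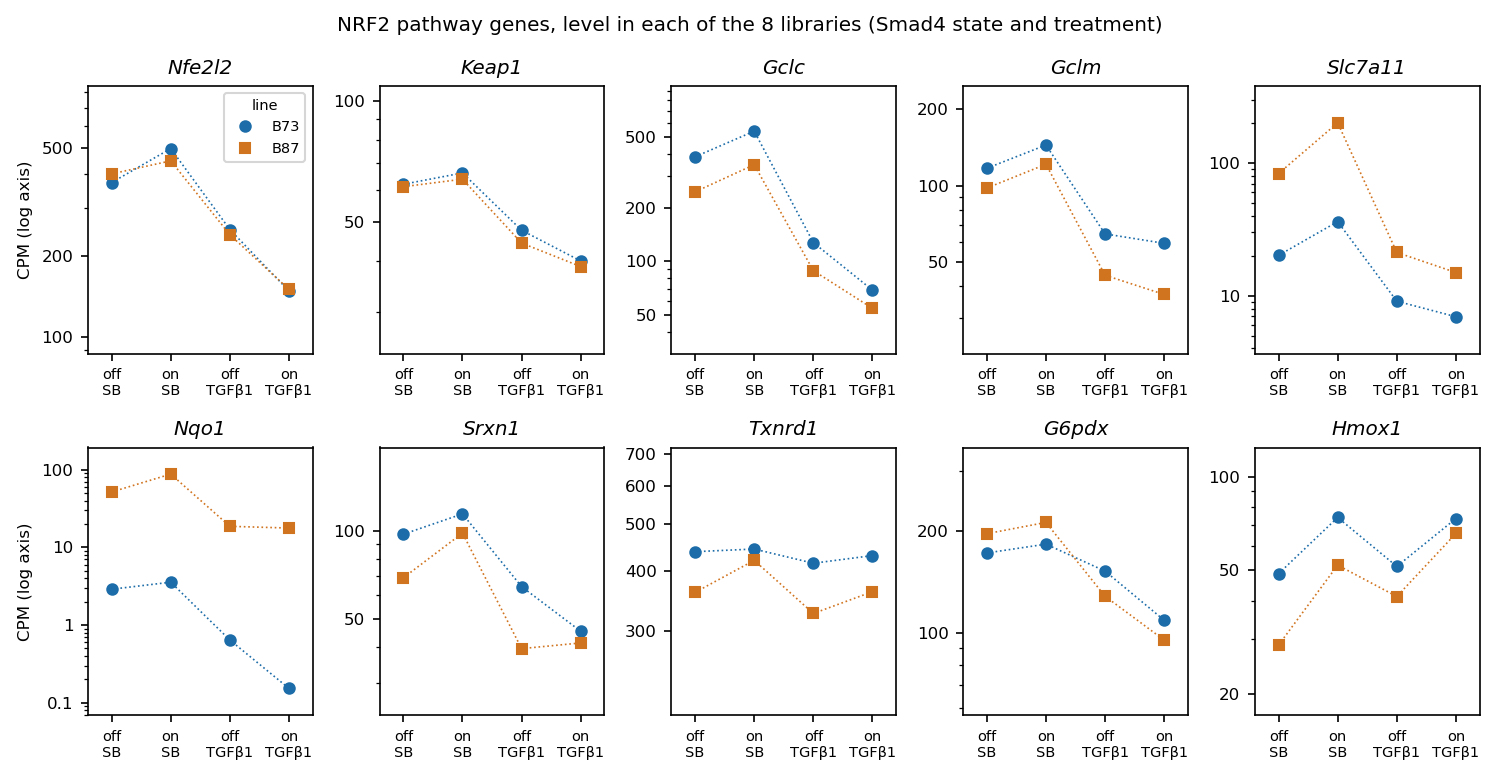
Level of the 10 genes in each of the 8 libraries, with Smad4 state and treatment on the x axis (SB, SB505124) and CPM on a logarithmic y axis whose range differs between panels. Blue circles are line B73 and orange squares line B87, 1 library each. Dotted lines join libraries of one line. *Nfe2l2*, *Gclc* and *Slc7a11* are lowest with Smad4 on and TGFβ1 in both lines, *Nqo1* separates the lines, and *Hmox1* is higher with Smad4 on in both.

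*Srxn1* and *Txnrd1* serve the peroxiredoxin and thioredoxin systems, and they differed in these cells. *Srxn1* (ENSMUSG00000032802, chr2:152105516-152111376, plus strand), sulfiredoxin, repairs over-oxidised peroxiredoxins. It was at 97.1 and 68.9 CPM in B73 and B87 with Smad4 off under SB505124, at 114 and 98.0 CPM with Smad4 on, at 64.3 and 39.5 CPM with Smad4 off and TGFβ1, and at 45.2 and 41.2 CPM with Smad4 on and TGFβ1. Every TGFβ1 library was below every SB505124 library. Its TGFβ1 change was -1.29 ± 0.144 with Smad4 on and -0.69 ± 0.142 with Smad4 off. Under TGFβ1 the lines disagreed on the Smad4 step, at -0.51 in B73 and 0.06 in B87.

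*Txnrd1* (ENSMUSG00000020250, chr10:82833951-82897712, plus strand), cytosolic thioredoxin reductase, kept to a narrow range. It was at 439 and 361 CPM in B73 and B87 with Smad4 off under SB505124, at 444 and 421 CPM with Smad4 on, at 415 and 327 CPM with Smad4 off and TGFβ1, and at 431 and 362 CPM with Smad4 on and TGFβ1. The groups overlapped. The log2 change with TGFβ1 was -0.13 (95% interval -0.35 to 0.08) with Smad4 on and -0.11 (-0.33 to 0.10) with Smad4 off, so changes past the 2-fold rule lie outside both intervals.

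*G6pdx* (ENSMUSG00000031400, chrX:74409483-74429194, minus strand) encodes glucose-6-phosphate dehydrogenase, which supplies the NADPH that keeps glutathione and thioredoxin reduced. It was at 172 and 196 CPM in B73 and B87 with Smad4 off under SB505124, at 182 and 212 CPM with Smad4 on, at 152 and 128 CPM with Smad4 off and TGFβ1, and at 109 and 94.98 CPM with Smad4 on and TGFβ1. The TGFβ1 libraries lay below the SB505124 libraries, and the change was -0.95 ± 0.135 with Smad4 on, just under the fold rule, and -0.39 ± 0.134 with Smad4 off. *G6pdx* overlaps the antisense gene *Ikbkg*, which had 1638 to 3300 counts per library, and the strand setting of the counting is not given in the sources used here. Of its stretches of 75 bases, 1.62% are shared, chiefly with *G6pd2*.

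*Hmox1* (ENSMUSG00000005413, chr8:75093621-75100589, plus strand), the heme oxygenase that opens heme and a target of NRF2 and of its competitor BACH1, had larger fitted values for Smad4 state than for treatment. It was at 48.8 and 28.8 CPM in B73 and B87 with Smad4 off under SB505124, at 73.9 and 52.0 CPM with Smad4 on, at 51.5 and 41.2 CPM with Smad4 off and TGFβ1, and at 73.3 and 65.7 CPM with Smad4 on and TGFβ1. The Smad4-on level was above the Smad4-off level of the same line under both treatments. The Smad4 difference was 0.72 ± 0.145 under SB505124 and 0.60 ± 0.144 under TGFβ1 on the log2 scale, while the TGFβ1 change was 0.17 ± 0.143 with Smad4 on, turning to -0.02 without the B87 library with Smad4 on and TGFβ1, and 0.29 ± 0.145 with Smad4 off.

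Counted over the comparison of TGFβ1 with SB505124 in Smad4-on cells, 6 of the 10 genes were called lower by edgeR's quasi-likelihood test (Benjamini-Hochberg adjusted p under 0.05 over all 14301 genes and more than 2-fold), beside 8.31% of all genes tested. They were *Nfe2l2*, *Nqo1*, *Gclc*, *Gclm*, *Srxn1* and *Slc7a11*. None was called higher, beside 5.62% of all genes. All 8 with an unadjusted p under 0.05 were lower, and 6266 of all genes had such a p in either direction. By adjusted p alone 8 were lower, beside 17.6% of all genes, with *Keap1* and *G6pdx* added. The median change of the 10 was -1.39, and that of all genes tested was -0.02. Since the genes were chosen with these values in view, nothing is read from the counts. Without the line in the model, edgeR called 4, leaving out *Nqo1* and *Slc7a11*, and DESeq2 called 5, leaving out *Nqo1*. Of all 14301 genes they called 1035 and 1363.

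In Smad4-off cells 4 of the 10 were called lower with TGFβ1, *Nqo1*, *Gclc*, *Gclm* and *Slc7a11*, beside 2.82% of all genes tested. Again none was called higher, beside 3.11% of all genes. All 8 with an unadjusted p under 0.05 were lower, and 4106 of all genes had such a p in either direction. By adjusted p alone 7 were lower, beside 6.24% of all genes. The median change was -0.68, against -0.02 for all genes tested. DESeq2 with the line called 3 of these 4, without *Gclm*, beside 793 of all 14301 genes in either direction. The edgeR count was 1, *Gclc*, without either B87 library of this comparison. Without the line in the model edgeR called 0 and DESeq2 called 1, *Gclc*, beside 168 and 476 of all 14301 genes.

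**Figure D3:**
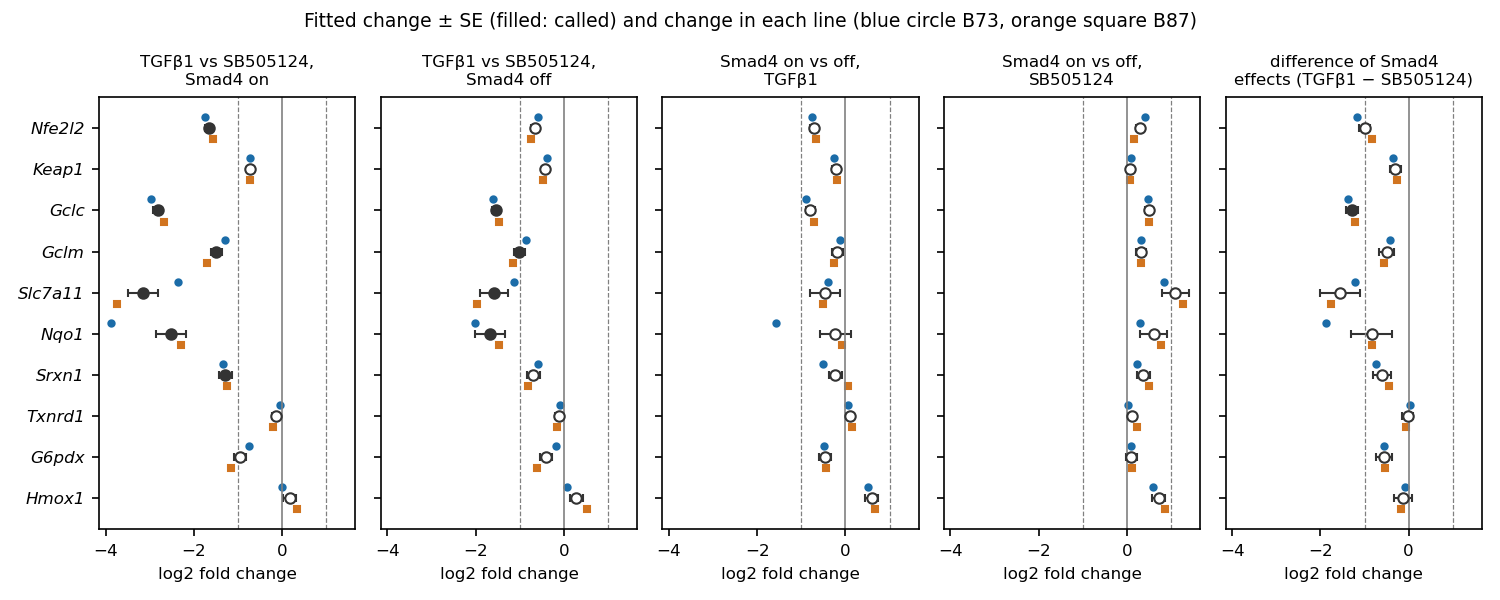
Log2 fold change of the 10 genes in 5 comparisons. Black circles with bars give the fitted value ± SE over both lines, filled where called, and blue circles and orange squares give the change in B73 and in B87. Dashed lines mark the 2-fold rule. The TGFβ1 panels hold 6 filled circles with Smad4 on and 4 with Smad4 off, and the fifth panel holds 1, *Gclc*.

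Restoring Smad4 while the receptor was blocked gave 10 positive values out of 10, from 0.08 for *Keap1* to 1.10 ± 0.300 for *Slc7a11*, with a median of 0.34 against 0.00 for all genes tested. *G6pdx*, at 0.10, turned to -0.03 without the B73 Smad4-off library and to -0.05 without the B87 Smad4-on library of this comparison. Values next in size were *Hmox1*, *Nqo1* at 0.61 ± 0.310 and *Gclc* at 0.49 ± 0.096. None was called by edgeR, beside 0.636% of all genes called higher and 0.455% called lower. Of the 10, 6 had an unadjusted p under 0.05, beside 1809 of all genes. DESeq2 with the line called 1, *Slc7a11*, beside 212 of all 14301 genes.

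Under TGFβ1 the Smad4 difference was negative for 8 of the 10 genes, the exceptions being *Hmox1* and *Txnrd1*. The lowest were *Gclc* at -0.79 ± 0.099 and *Nfe2l2* at -0.71 ± 0.089, in the same direction in both lines. *G6pdx* stood at -0.46 ± 0.135. None of the 10 was called by edgeR or by DESeq2 with the line, beside 1.31% of all genes called higher and 1.80% called lower. An unadjusted p under 0.05 was found for 5, beside 3396 of all genes. By adjusted p alone 2 were lower, *Gclc* and *Nfe2l2*, beside 3.28% of all genes.

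The 2 Smad4 differences were then set against each other in an interaction term, which equals the difference between the TGFβ1 changes of Smad4-on and Smad4-off cells. The term was negative for all 10 genes, with a median of -0.58 against -0.01 for all genes tested. The values nearest 0, *Txnrd1* at -0.02 and *Hmox1* at -0.12, each turned positive without 1 or another library, up to 0.08 and 0.07. The term was -1.29 ± 0.138 for *Gclc*, the one gene of the 10 called, beside 0.133% of all genes called lower and 0.0559% called higher. *Nfe2l2* followed at -0.999 ± 0.125 and passed by adjusted p alone, as did *Gclc*, beside 0.140% of all genes. *Slc7a11* had the lowest value, -1.56 ± 0.455, with a wide error and no call. The *Gclc* call was kept without the B87 library with Smad4 on and TGFβ1 and lost without any 1 of the other 7 libraries, and without the line in the model edgeR called none of the 10 and DESeq2 called 1, *Nfe2l2*.

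A constant difference between the lines was largest for *Nqo1*, which was 25.9-fold higher in B87 (log2 4.69 ± 0.256), followed by *Slc7a11* at 3.43-fold (1.78 ± 0.232). These were the 2 genes of the 10 called higher in B87, beside 3.87% of all genes, and none was called lower, beside 4.50%. The other 8 values were below 0 and smaller in size. By adjusted p alone 5 of the 10 were lower in B87, beside 1385 of all 14301 genes. They were *Gclc*, *Gclm*, *Hmox1*, *Srxn1* and *Txnrd1*. By that rule 2 were higher, beside 1275 of all genes. *Gclc* was at -0.54 ± 0.069, *Hmox1* at -0.43 ± 0.102 and *Gclm* at -0.43 ± 0.086, while *Nfe2l2* was at -0.02 ± 0.063 and *Keap1* at -0.06 ± 0.058. For *Nfe2l2* the 95% interval of the line difference ran from -0.17 to 0.13, while *Nqo1* had at least 4.09 at the lower end of its own. Other features of the lines moved with it, since 4 of 6 epithelial markers were called lower in B87, and of 5 tested fibroblast markers 3 were called higher and 1, *Col1a2*, lower, and their part in the difference was not tested.

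Whether the lines answered differently was asked with line terms. For the Smad4 step none of the 10 genes was called by edgeR or by DESeq2 with the line, beside 0.392% of all genes. An unadjusted p under 0.05 was found for 1 of the 10 and 1408 of all genes. For the TGFβ1 step edgeR called none of the 10 and 0% of all genes, with 4 of the 10 and 1198 of all genes at an unadjusted p under 0.05. DESeq2 with the line called 1 of the 10 there, *Slc7a11*, beside 25 of all 14301 genes. In edgeR, which did not call it, its change with TGFβ1 was 1.10 ± 0.183 lower on the log2 scale in B87 than in B73.

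Over the 8 libraries, with each line centred on its own mean, the genes other than *Hmox1* and *Txnrd1* gave 28 pairs with a Pearson r of log2 CPM from 0.849 to 0.995. *Hmox1* gave r of -0.513 to -0.187 with those genes and *Txnrd1* 0.472 to 0.753. These values share libraries, depth and the contrast of TGFβ1 with SB505124, so many genes reach similar values. Among 9610 genes searched, the 3 most like *Nfe2l2* were *Pear1*, *Scel* and *Plxna2* (r of 0.996, 0.996 and 0.995), and those most like *Gclc* were *Gsta4*, *Selenop* and *Ech1* (0.998, 0.997 and 0.996). *Selenop* was also among the 3 most like *Keap1* (0.998). For *Slc7a11* they were *Pcsk6*, *Tnfaip8l1* and *Plcd3* (0.994, 0.991 and 0.991).

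Beyond these genes, a list of 24 other NRF2 targets was examined, all of which were tested. With TGFβ1 in Smad4-on cells 8 of the 24 were called lower and none higher, beside 8.31% and 5.62% of all genes tested. A negative value was found for 22, and the median was -0.61, against -0.02 for all genes tested. The 5 largest were *Cbr3*, a carbonyl reductase, at -3.87 ± 0.539 (edgeR adjusted p = 0.0023), *Mgst1*, a microsomal glutathione transferase, at -3.15 ± 0.423 (0.002), *Ephx1*, an epoxide hydrolase, at -2.36 ± 0.288 (0.00135), *Fth1*, the ferritin heavy chain, at -1.48 ± 0.120 (0.000282), and *Gss*, glutathione synthetase, at -1.33 ± 0.190 (0.0025). With Smad4 on and TGFβ1, *Cbr3* held only 10 and 27 counts in B73 and B87, and *Mgst1* 22 and 137. *Gss* completes the glutathione made from the product of *Gclc* and *Gclm*. By adjusted p alone 16 of the 24 were lower, beside 17.6% of all genes, and 2 were higher, beside 2235 of all 14301 genes.

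In Smad4-off cells *Cbr3*, *Mgst1* and *Ephx1* were called lower with TGFβ1, beside 2.82% of all genes, with values of -1.92 ± 0.472 (edgeR adjusted p = 0.041), -1.58 ± 0.385 (0.0401) and -1.12 ± 0.275 (0.0406). These 3 calls were close to the threshold. In edgeR none of the 24 was called without the B73 library with Smad4 off and SB505124 or without either Smad4-off library with TGFβ1, and 1 was called without either library with Smad4 on and SB505124. Without the line in the model edgeR called 0 and DESeq2 called 2. Smad4 state gave no call among the 24 by edgeR under either treatment, with 12 at an unadjusted p under 0.05 with TGFβ1 and 7 with SB505124. Of all genes, 3396 had such a p with TGFβ1 and 1809 with SB505124. DESeq2 with the line called 1 with TGFβ1 and 0 with SB505124. For the interaction the median was -0.28, with 0 calls by edgeR and by DESeq2 with the line. An unadjusted p under 0.05 was found for 7, beside 1493 of all genes.

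**Figure D4:**
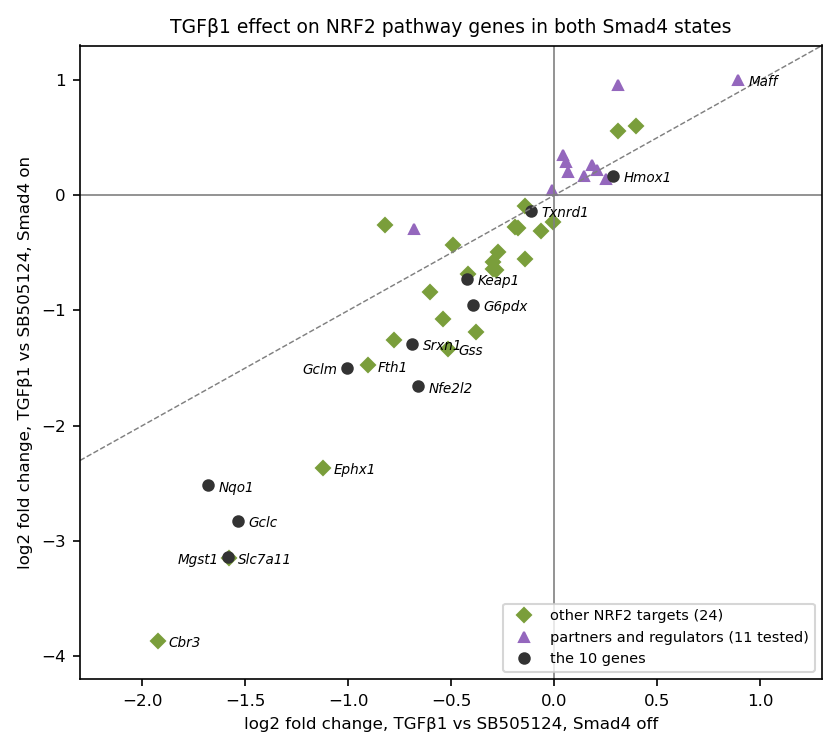
Log2 fold change of TGFβ1 against SB505124 with Smad4 off (x axis) and with Smad4 on (y axis) for the 10 genes (black circles), 24 other NRF2 targets (green diamonds) and 11 tested partners and regulators of NRF2 (purple triangles). The dashed line marks equal change. *Cbr3*, *Slc7a11*, *Mgst1*, *Gclc* and *Nqo1* lie at the lower left, below the dashed line, and *Maff* at the upper right. The axes share no library.

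Partners and regulators of NRF2 were examined next. Of 12 listed, 11 were tested, and with TGFβ1 in Smad4-on cells 1 was called higher, beside 5.62% of all genes, and none lower, with 10 positive values and a median of 0.22. It was *Maff*, a small MAF protein that pairs with NRF2 on DNA, at 1.00 ± 0.089 (edgeR adjusted p = 0.000381), at the edge of the fold rule. In edgeR the count was 0 without the filter on low counts, with at least 10 counts in every library, without the line in the model, and without the B73 library with Smad4 on and TGFβ1. In Smad4-off cells *Maff* was at 0.89 ± 0.089 (0.00197) and none of the 11 was called by edgeR or by DESeq2 with the line. An unadjusted p under 0.05 was found for 3, beside 4106 of all genes.

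Of 11 NADPH oxidase genes, which make superoxide or hydrogen peroxide, 4 were tested. *Nox4*, an oxidase that TGFβ is known to induce, was higher with TGFβ1 in Smad4-on cells at 2.16 ± 0.501 (edgeR adjusted p = 0.0166), and stood at 1.09 ± 0.474 (0.186) in Smad4-off cells. *Cybb*, named after its values were seen, was called lower in both states, at a mean level of -0.93 log2 CPM. DESeq2 with the line called none of the 4 with Smad4 off, but 2 of them had no adjusted p and could not be called. In that fit 2 of the 4 had an unadjusted p under 0.05. Of all genes tested, 5.62% were called higher and 8.31% lower with Smad4 on, and 3.11% and 2.82% with Smad4 off. The 2 oxidase calls with Smad4 on fell to 0 without either B87 library of that comparison and to 1 without either B73 library, with at least 10 counts in every library, or without the line in the model. ATF4 is a stress factor that shares *Slc7a11* as a target with NRF2, and the list of ATF4 and its other targets had 10 genes, all tested. Of these, 1 was called, *Ddit4*, an inhibitor of mTORC1 signalling, which was higher with TGFβ1 by 2.50 ± 0.281 with Smad4 on (edgeR adjusted p = 0.000965) and by 2.07 ± 0.277 with Smad4 off (0.00522). This stands beside 5.62% of all genes called higher with Smad4 on and 3.11% with Smad4 off. By adjusted p alone, 2 were higher and 3 lower with Smad4 on, and 1 was higher and 1 lower with Smad4 off. Of all 14301 genes, 2235 were higher and 2516 lower by that rule with Smad4 on, and 996 and 892 with Smad4 off. The list median was -0.11 with Smad4 on and -0.25 with Smad4 off. These medians pool 2 lines that differed. For the line by TGFβ1 term of edgeR, 7 of the 10 had an unadjusted p under 0.05, beside 1198 of all genes. All 7 had a lower change in B87 than in B73, and the list median of the term was -0.70. For this term edgeR called 0 of the 10 and DESeq2 with the line called 1.

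Epithelial markers differed among themselves with TGFβ1. In Smad4-on cells 2 of the 6 were called lower and none higher, beside 8.31% and 5.62% of all genes. They were *Krt19*, a ductal keratin, at -2.33 ± 0.215 (edgeR adjusted p = 0.000454) and *Cdh1*, E-cadherin, at -2.31 ± 0.458 (0.00936). *Krt8* and *Krt18*, keratins of simple epithelia, had positive values of 0.20 ± 0.384 and 0.52 ± 0.284. The summed level of the 6 was 1650 to 6180 CPM with SB505124 and 1170 to 5720 CPM with TGFβ1 in these cells, and the summed fibroblast markers were 5.84 to 161 and 10.6 to 668 CPM. The part of these markers in the lower levels of the NRF2 genes was not tested.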

How the data were processed

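The deposited table held raw read counts per gene for 8 libraries, made by the authors from reads processed, per the submitters' processing notes, with FastQC 0.11.5, Trimmomatic 0.36, STAR 2.5.3a and featureCounts 1.6.3. Gene coordinates were those of GRCm38. Counts were used as deposited, in edgeR 4.0.16 (R 4.3.3): filterByExpr kept 14301 genes, libraries were scaled by TMM, and a quasi-likelihood F test with group and line was fitted over all 8 libraries. A call needed a Benjamini-Hochberg adjusted p under 0.05 over all genes tested and more than 2-fold. CPM used TMM-scaled totals, and changes within a line had a prior count of 2. A floor of 3 counts corresponded to 0.125 to 0.162 CPM.

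The line named in the titles pairs the groups. Line differences correlated between groups over the tested genes, at 0.642 to 0.774 over 6 pairs of groups. Each line gave 1 library per group. With the line in the model its constant difference is taken out. The p-values then rest on how far changes differed between the 2 tumour lines and on a spread that edgeR shares over genes.

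The genes and lists were chosen with earlier results of these data known. Named genes were the 10, *Smad4*, from each list the 5 largest calls per direction with a mean of at least 1 log2 CPM, and the 3 genes most correlated with each of the 10, given for 4 of them. Alternatives were DESeq2 1.42.0, other scaling and filters, no fold rule, no line term and each library left out. The scripts were tested on simulated data. One further allele of the mouse model is not reported here.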

Additional observations from a re-analysis of the deposited data

Results flagged for a closer look

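*Gclc* met the condition for a second look because its TGFβ1 change differed between the Smad4 states by a test of the difference itself, the interaction term of edgeR's quasi-likelihood test, at -1.29 ± 0.138 on the log2 scale. The change was larger in Smad4-on cells in both lines, by -1.37 in B73 and -1.21 in B87. The gene was chosen with its values in view, and the value is given as a description.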

How the results depend on the processing

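Counts of the 10 genes called depended on the following choices. DESeq2 with the line called 1 for Smad4 under SB505124, 2 for the interaction (*Gclc*, *Slc7a11*) and 1 for the line by TGFβ1 term. Of all 14301 genes it called 212, 134 and 25 for these terms. Without a filter on low counts the same terms gave 1, 3 and 1 of the 10 genes, beside 403, 284 and 80 of 27770 genes. A minimum of 10 counts in every library gave 2 for the interaction and 1 for the constant line difference, since it removes *Nqo1*. Of 11848 genes kept by that minimum, 27 and 488 were called. Without the fold rule the counts were 2 for Smad4 under TGFβ1, 7 for TGFβ1 with Smad4 off, 2 for the interaction and 7 for the line difference. Of all 14301 genes, 973, 1888, 28 and 2660 were called by that rule. Without the pairing by line (no replicate block), TGFβ1 with Smad4 off gave 0 in edgeR and 1 in DESeq2, and the interaction gave 0 in edgeR and 1 in DESeq2 (*Nfe2l2*). Of all 14301 genes, edgeR called 168 and DESeq2 476 for TGFβ1 with Smad4 off, and 0 and 40 for the interaction. Leaving out 1 library gave 0 to 1 for the interaction and 1 to 4 for TGFβ1 with Smad4 off. TGFβ1 with Smad4 on gave 4 to 8 over all settings. No called value of the 10 genes changed sign under any setting run. The same alternatives for the other lists were added after seeing the data. With 1 library per line and group, depth limited only *Nqo1* in B73 among the 10 genes. The causes of these shifts were otherwise not tested.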
